A study of Homo sapiens with 2 samples.

Results

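Oxidative phosphorylation was examined as a set of 96 genes for subunits of respiratory chain complexes I to IV and of ATP synthase (complex V), out of 36601 genes listed. Members were chosen by symbol alone: every mitochondrially encoded MT-ND, MT-CO, MT-CYB and MT-ATP gene, and the nuclear NDUFA, NDUFB, NDUFC, NDUFS, NDUFV, NDUFAB1, SDHA to SDHD, UQCR, COX4 to COX8 and ATP5 subunit genes, without NDUFA4L2, assembly factors and pseudogenes. This gave 13 members encoded by mitochondrial DNA (mtDNA) and 83 encoded in the nucleus. Complex I had 7 mtDNA and 37 nuclear members, complex II 4 nuclear members, complex III 1 and 9, complex IV 3 and 18 (NDUFA4 was counted in complex IV), and complex V 2 and 15.

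The libraries came from human inner ear organoids at day 40, made from the WA25 embryonic stem cell line, in which a nuclear tdTomato marks SOX2 expression. Organoids were dissociated for 90 min in Accutase, reporter-positive cells were sorted by flow cytometry, and their RNA was read with the 10x Genomics 3' assay, version 3.1. One group, GelNB-CH, is a light-crosslinked gelatin hydrogel with a 4-arm thiol crosslinker at 0.1 wt%, and the other, Matrigel, is a basement membrane extract. Each group had 1 library, from 1 cell line, so no test of the matrix was possible. For both libraries the culture protocol speaks of GelNB-CH embedding (day 11) and of oxidized dextran at 0.02% (day 15). It describes no Matrigel step, so the groups were taken from the sample titles and treatment labels. All values below compare these 2 libraries; intervals are exact 95% intervals that cover counting error only and not variation between organoid batches.

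Oxidative phosphorylation passes electrons from NADH and succinate through complexes I to IV to oxygen, and the proton gradient built on the way drives ATP synthase. Complex II is encoded wholly in the nucleus, whereas each of the other complexes is assembled from subunits of both genomes. Mitochondrial transcripts are made as long polycistronic RNAs that are cut at the tRNAs between the genes. In the inner ear, sensory cells have a high demand for ATP, and defects of mtDNA can cause hearing loss.

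After filtering, 18253 cells of GelNB-CH and 9800 cells of Matrigel remained, with a median of 8558 and 14002 unique molecular identifiers (UMIs, counted molecules) per cell. The libraries shared 78 cell barcodes, of which 63 were among the kept cells. Cells were clustered without any member gene, and clusters were called by the cell type whose markers they carried. Among the 26 clusters, 7 had no name. Otic epithelium-like cells (clusters 7, 8, 10, 11, 12 and 13; 6098 and 2321 cells) had OC90, an otolith matrix gene of the otic epithelium, among the 10 leading genes of every cluster. The other classes described here were mesenchyme-like (3580 and 1948 cells), cartilage-like (1975 and 683), Schwann or satellite glia-like (1272 and 2493), central nervous system (CNS) progenitor-like (459 and 97) and neuron-like cells, which are given as clusters 9 (846 and 123) and 22 (364 and 657). The classes were made up differently in the libraries. Clusters 10 (2022 cells) and 11 (1561) held most otic cells of GelNB-CH, while those of Matrigel were spread over all 6 clusters, with cluster 12 (766) and cluster 8 (515) the largest. Most neuron-like cells were in cluster 9 in GelNB-CH and in cluster 22 in Matrigel. Levels are given as percent of all UMIs, or for single genes as CPM, counts scaled to a common total of UMIs, summed over the cells of a class.

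Pairs of mtDNA members overlap in the genome, and these sequences are shown because the members concerned lie apart from other mitochondrial genes in the comparison of libraries. MT-ATP8, at chrM:8366-8572 of GRCh38 (plus strand, GENCODE v29), is a protein-coding gene of 207 bases with no introns, and its last 46 bases, in capitals, are also the first bases of MT-ATP6 (8527 to 8572).
MT-ATP8: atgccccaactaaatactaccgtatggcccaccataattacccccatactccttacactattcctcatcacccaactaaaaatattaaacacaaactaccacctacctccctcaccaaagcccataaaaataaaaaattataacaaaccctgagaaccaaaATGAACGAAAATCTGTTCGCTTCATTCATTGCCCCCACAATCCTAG
MT-ND4L has 297 bases, of which the last 60 (chrM:10707-10766) are shown, with the 7 bases shared with MT-ND4 (10760 to 10766) in capitals.
MT-ND4L: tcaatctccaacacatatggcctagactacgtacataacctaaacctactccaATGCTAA
The members of each overlapping pair lie on 1 mature RNA, so a read inside the overlap does not tell them apart. The overlap is only 46 of the 207 bases of MT-ATP8 and 7 of the 297 bases of MT-ND4L. Because each pair shares 1 RNA, the level of MT-ATP8 or MT-ND4L is not that of a separate transcript. Their levels, and opposite ratios within a pair, are therefore uncertain.

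Summed over cells of all depths, the genomes differed between the libraries mainly in the mitochondrial part, and mainly in otic, neuron-like and CNS progenitor-like cells. In otic epithelium-like cells, mtDNA members took 1.95% of UMIs in GelNB-CH and 1.41% in Matrigel, a ratio of 1.39 (interval 1.38 to 1.39), while nuclear members took 1.81% and 1.85%, a ratio of 0.982 (0.979 to 0.985). There were thus 1.08 mtDNA-encoded UMIs for each nuclear-encoded member UMI in GelNB-CH and 0.762 in Matrigel. The mtDNA share was higher in GelNB-CH in each of the 6 otic clusters, with ratios of 1.21 in cluster 7, 1.5 in cluster 8, 1.70 in cluster 10, 1.35 in cluster 11, 1.28 in cluster 12 and 1.32 in cluster 13. Without clusters 10 and 12, the largest otic cluster of each library, the log2 ratio of the mtDNA share of the class was 0.37, against 0.47 with them; that of the nuclear share was 0.02, against -0.03.

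Neuron-like cells had a similar gap in mtDNA members. In cluster 22 they took 2.54% in GelNB-CH and 1.86% in Matrigel (ratio 1.37, interval 1.36 to 1.38), against 1.78% and 1.85% for nuclear members. In cluster 9 the mtDNA values were 2.81% and 2.25% (ratio 1.249) and the nuclear values 2.06% and 1.96%. CNS progenitor-like cells held 3.09% and 2.34% mtDNA-encoded UMIs (ratio 1.32, interval 1.30 to 1.33), the Matrigel value from 97 cells, and 2.10% and 2.02% nuclear-encoded.

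In the other lineages the mitochondrial gap was small. Mesenchyme-like cells had 3.03% and 2.73% mtDNA-encoded UMIs (ratio 1.11), cartilage-like cells 2.53% and 2.28% (1.11), and Schwann or satellite glia-like cells 2.99% and 2.91% (1.03). Within the last class, cluster 16 had a ratio of 0.984, the only one of the 26 clusters below 1. Nuclear members held between 1.66% and 2.10% in every one of these classes in both libraries, and their ratios ran from 0.966 in cluster 22 to 1.06 in cartilage-like cells. Over all kept cells, mtDNA members took 2.47% and 2.24% (ratio 1.102) and nuclear members 1.84% and 1.84% (1.004). Otic cells had the lowest mtDNA share of the classes in both libraries, although their nuclear share was in the middle of the range.

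**Figure D1:**
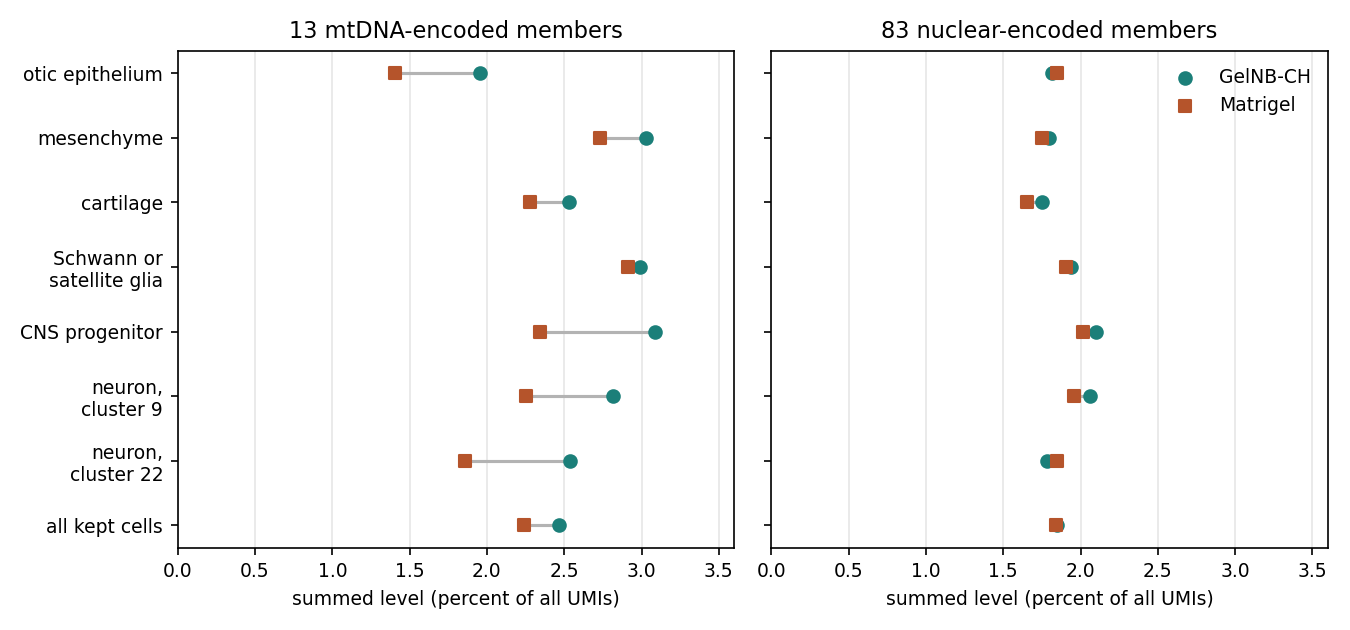
Summed level of the 13 mtDNA-encoded and the 83 nuclear-encoded members, as percent of all UMIs, by cell class, with GelNB-CH and Matrigel side by side and 1 library per group. The mtDNA share of otic cells was 1.95% in GelNB-CH and 1.41% in Matrigel, while the nuclear share stayed near 1.8% in both.

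The plot of summed levels by class shows the mitochondrial values spreading over classes and libraries and the nuclear values in a narrow band. Across the 12 points of 6 classes in 2 libraries, neuron-like cells taken as 1 class, the 2 sums had a Pearson correlation of 0.30, given as a description of points that share libraries, depth and a common total. Depth differed between the libraries, and within cells of 8000 to 16000 UMIs the otic mtDNA share was 1.93% against 1.45% (ratio 1.33), and 1.82% against 1.4% (1.30) at 16000 to 32000 UMIs. At 4000 to 8000 UMIs the otic mtDNA ratio was 1.11 (2.22% against 2.00%, the latter from 191 cells), below the nuclear ratio of 1.27 there. The otic nuclear ratio was 0.982 at 8000 to 16000, 0.898 at 16000 to 32000 and 0.827 at 32000 to 64000 UMIs. Over all kept cells the nuclear ratio likewise fell with depth, from 1.23 at 4000 to 8000 to 0.893 at 32000 to 64000 UMIs. Over all kept cells the mtDNA ratio was 0.893 at 4000 to 8000, 1.04 at 8000 to 16000 and 0.977 at 16000 to 32000 UMIs. Cartilage-like cells had ratios of 0.725, 1.08 and 1.08 in these ranges, and mesenchyme-like cells 0.943, 1.14 and 1.05. The Schwann or satellite glia-like class had 0.768, 0.939 and 1.01. The direction thus depended on depth in all kept cells and in each of these classes. At 8000 to 16000 UMIs the mtDNA share of the Schwann or satellite glia-like class was 2.81% in GelNB-CH and 2.99% in Matrigel. This was the opposite order to the whole class. MALAT1, an RNA retained in the nucleus, moved the other way in otic cells, at 2.99% in GelNB-CH and 3.46% in Matrigel, and in Schwann or satellite glia-like cells, at 1.80% and 2.55%; its part in the mtDNA difference was not tested.

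The mtDNA gap in otic cells was not spread evenly over the complexes. The 2 complex V genes had the largest ratio (0.354% and 0.219% of UMIs, ratio 1.62), followed by the 3 complex IV genes (0.745% and 0.483%, 1.54), MT-CYB of complex III (0.188% and 0.129%, 1.46) and the 7 complex I genes (0.668% and 0.578%, 1.16). The otic complex I sum includes MT-ND3 and MT-ND4L, which were higher in Matrigel. The mtDNA complex I sum had a ratio of 0.948 in mesenchyme-like and 0.881 in Schwann or satellite glia-like cells. In mesenchyme-like cells this sum mixed both directions. MT-ND1, MT-ND2, MT-ND4 and MT-ND5 had ratios of 1.21, 1.09, 1.13 and 1.06 there, and MT-ND3, MT-ND4L and MT-ND6 ones of 0.661, 0.607 and 0.715. Single genes were counted by a size rule, a ratio of at least 1.5 among genes with a mean of at least 10 CPM. In otic cells 3 of 13 mtDNA members passed it with the higher level in GelNB-CH, as did 2.9% of all 10139 genes, and 1 of 13 with the higher level in Matrigel, as did 2.65%. The median log2 ratio of the 13 was 0.31, beside -0.02 for all genes.

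Among the membrane-arm subunits of complex I, the proton-pumping core of the enzyme, MT-ND4 stood at 1887 CPM in GelNB-CH and 1347 in Matrigel in otic cells (ratio 1.4), MT-ND1 at 933 and 752 (1.24), MT-ND2 at 1691 and 1424 (1.19) and MT-ND5 at 714 and 602 (1.18). These 4 genes were all higher in GelNB-CH. MT-ND6, the only mtDNA member encoded on the light strand, was at 46.7 and 44.0 CPM, a ratio of 1.06 with an interval of 1.00 to 1.13, and it was lower in GelNB-CH in the other 5 classes, with ratios from 0.69 to 0.98. The small subunit genes MT-ND3 and MT-ND4L had the opposite order: MT-ND3 was at 1272 CPM in GelNB-CH and 1405 in Matrigel (a ratio of Matrigel to GelNB-CH of 1.105), and MT-ND4L at 136 and 202 (1.49).

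MT-CYB, cytochrome b of complex III, was at 1880 and 1289 CPM (ratio 1.46, interval 1.44 to 1.47). Of the 3 catalytic-core genes of complex IV, MT-CO2, whose product accepts electrons from cytochrome c, was at 2861 CPM in GelNB-CH and 1568 in Matrigel, the largest ratio of the 13 at 1.83 (1.81 to 1.84). MT-CO3 was at 1945 and 1199 (1.62), and MT-CO1, which holds the oxygen-reducing centre, was lower in ratio at 2648 and 2064 (1.28). MT-ATP6, a part of the proton channel of ATP synthase, was at 3469 and 2057 (1.69, interval 1.67 to 1.70). Its overlapping partner MT-ATP8, on the same RNA, was at 67.9 and 132 CPM, higher in Matrigel by a ratio of 1.94 (1.87 to 2.02). MT-CO2, MT-ATP6 and MT-CO3 were thus the 3 genes past the size rule in GelNB-CH, and MT-ATP8 the 1 in Matrigel.

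**Figure D2:**
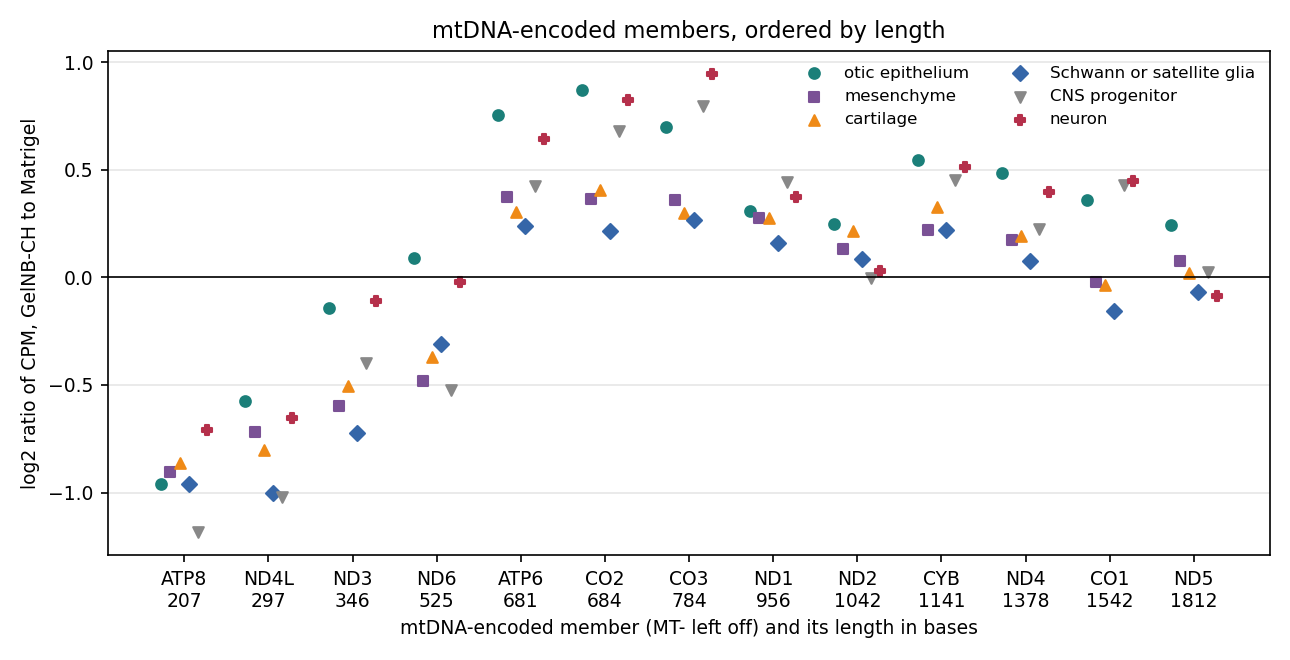
Ratio of GelNB-CH to Matrigel CPM for each of the 13 mtDNA-encoded genes on a log2 axis, with 1 symbol per cell class and genes ordered by length. MT-ATP8, MT-ND4L and MT-ND3, the 3 shortest, lie below a ratio of 1 in each of the 6 classes, and MT-CO2, MT-CO3 and MT-ATP6 lie above it in each.

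The plot of the 13 genes by class shows which genes kept their direction in every lineage; the order of the ratios differed between classes. MT-ATP8, MT-ND4L and MT-ND3, the 3 shortest members at 207, 297 and 346 bases, were higher in Matrigel in all 6 classes. In Schwann or satellite glia-like cells, where the summed share hardly differed, MT-ND3 was at 1758 CPM in GelNB-CH and 2906 in Matrigel and MT-ND4L at 153 and 308. MT-CO2, at 4921 and 4237 CPM, was still higher in GelNB-CH there, while MT-CO1, at 5366 and 5976, was not. In mesenchyme-like cells MT-ND3 was at 1848 and 2796 CPM and MT-ATP6 at 5313 and 4100.

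In neuron-like cells taken as 1 class, MT-CO3 was at 4098 CPM in GelNB-CH and 2127 in Matrigel and MT-CO2 at 4595 and 2594. In CNS progenitor-like cells MT-CO3 was at 4941 and 2845 CPM and MT-CO2 at 5341 and 3337, whereas MT-ND2 was at 1077 and 1078. Of the mtDNA members higher in GelNB-CH, MT-CO3 and MT-CO2 had the highest ratios in these classes, and MT-CO2 and MT-ATP6 in otic cells.

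Counts by the size rule in the other classes followed these values. In all kept cells, 0 of 13 mtDNA members passed with the higher level in GelNB-CH (2.5% of all genes did) and 2 with the higher level in Matrigel (4.15%). In mesenchyme-like cells the counts were 0 (1.71%) and 3 (3.53%), in cartilage-like cells 0 (2.36%) and 2 (5.91%), and in Schwann or satellite glia-like cells 0 (1.94%) and 3 (4.07%). In CNS progenitor-like cells they were 2 (5.96%) and 2 (10.9%), in cluster 9, 1 (4.17%) and 2 (7.25%), and in cluster 22, 2 (3%) and 2 (4.41%).

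Transcript length was set beside these ratios, since the 3 members lower in GelNB-CH were the shortest. In otic cells the 3 mtDNA members under 400 bases had a median log2 ratio of -0.58, and the 4 of 600 to 1000 bases one of 0.73. The single nuclear member whose longest annotated transcript is under 400 bases, ATP5ME, was at -0.54, while the 2 other genes that short had a median of -0.03. At 600 to 1000 bases, 25 nuclear members had a median of 0.07 and 293 other genes one of 0.11. Outside the set, genes under 400 bases had medians of -0.67 in mesenchyme-like (3 genes), -0.62 in Schwann or satellite glia-like (3) and -0.68 in neuron-like cells (4). The medians were 0.04 in cartilage-like and 0.36 in CNS progenitor-like cells, with 2 genes each. In these classes, in the same order, the mtDNA members under 400 bases had medians of -0.72, -0.96, -0.65, -0.80 and -1.02. Without the members under 400 bases, the mtDNA log2 ratio of otic cells was 0.55. Whether length plays a part in the ratios was not tested.

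Nuclear members differed little between the libraries, and in both directions. Of the 83, 76 reached a mean of 10 CPM. COX7B2, COX8C, COX6A2, COX6B2, COX4I2 and UQCRHL were below it and COX7A1 had no counts in otic cells. In otic cells 0 of 76 passed the size rule toward GelNB-CH and 1 toward Matrigel, with 41 ratios above and 35 below 1 and a median log2 ratio of 0.01, against 2.9% and 2.65% of all genes. The same counts, with the shares of all genes in brackets, were 1 and 1 in all kept cells (2.5% and 4.15%). They were 0 and 1 in mesenchyme-like (1.71% and 3.53%) and 2 and 2 in cartilage-like cells (2.36% and 5.91%). Schwann or satellite glia-like cells had 0 and 2 (1.94% and 4.07%) and CNS progenitor-like cells 0 and 2 (5.96% and 10.9%). Cluster 9 had 0 and 0 (4.17% and 7.25%) and cluster 22 had 0 and 1 (3% and 4.41%). Summed by complex, otic ratios were 1.04 for nuclear complex I (0.611% and 0.587%), 1.00 for complex II (0.0181% in both), 0.898 for complex III (0.210% and 0.234%), 0.971 for complex IV (0.486% and 0.501%) and 0.964 for complex V (0.489% and 0.508%).

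**Figure D3:**
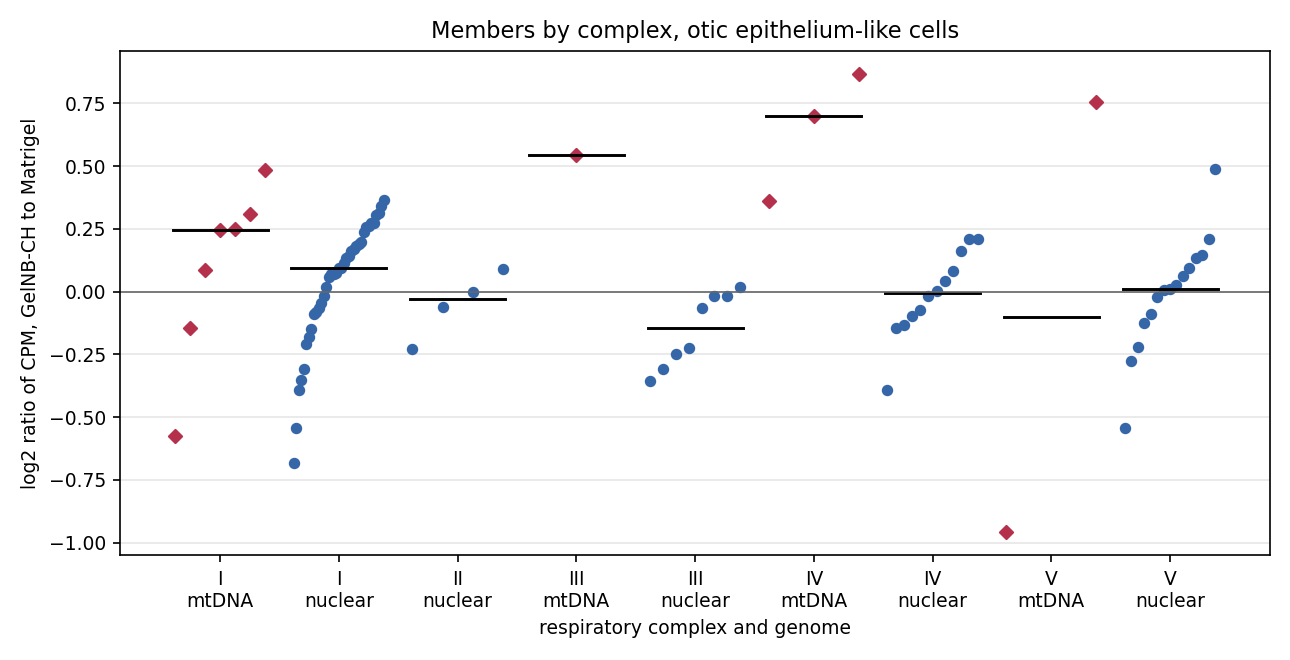
Ratio of GelNB-CH to Matrigel CPM in otic epithelium-like cells for each member with a mean of at least 10 CPM, by complex, on a log2 axis, with red diamonds for mtDNA-encoded and blue circles for nuclear-encoded members and a black line at each median. Nuclear members lie between 0.623 (NDUFA3) and 1.404 (ATP5MC1), and mtDNA members between 0.514 (MT-ATP8) and 1.83 (MT-CO2).

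The plot of members by complex shows nuclear medians near a ratio of 1 in complexes I, II, IV and V and below it in complex III, with all nuclear points inside the range of the mtDNA points. In complex I, the highest nuclear ratios belonged to NDUFS6 (286 CPM in GelNB-CH and 222 in Matrigel, 1.29), NDUFS7 (79.7 and 63.0, 1.27) and NDUFS8 (154 and 124, 1.24), subunits of the hydrophilic arm of which NDUFS7 and NDUFS8 bind iron-sulphur clusters, and to the membrane-arm subunit NDUFB7 (198 and 160, 1.24). The lowest belonged to NDUFA3 (147 and 237 CPM, Matrigel to GelNB-CH ratio 1.61, interval 1.56 to 1.65), NDUFB1 (135 and 197, 1.46) and NDUFA1 (163 and 214, 1.31), small accessory subunits of the membrane arm. NDUFA3 was the 1 nuclear member past 1.5-fold in otic cells, and it was among the 3 lowest ratios in each of the 6 classes.

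Complex II, succinate dehydrogenase, showed little difference. SDHA, the flavoprotein, was at 20.6 CPM in GelNB-CH and 24.1 in Matrigel. SDHB, the iron-sulphur subunit, was at 37.5 in both, and the membrane anchors SDHC and SDHD were at 86.3 and 81.2 and at 36.5 and 38.1. Of the 4, SDHA had the largest gap, with a Matrigel to GelNB-CH ratio of 1.17 and an interval of 1.08 to 1.27.

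In complex III, UQCR11 was at 236 CPM in GelNB-CH and 302 in Matrigel, UQCRQ at 242 and 300, and UQCRB at 486 and 577. The core subunits UQCRC1 (53.3 and 55.6) and UQCRFS1, the Rieske iron-sulphur protein (116 and 117), had ratios of 0.957 and 0.989. UQCRH was at 596 and 603, and UQCRHL, its near-identical copy, at 2.85 and 7.48; reads could be split between both genes, so the value of UQCRHL is uncertain.

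In complex IV, COX7C, a small accessory subunit, was at 892 CPM in GelNB-CH and 1171 in Matrigel (1.31 higher in Matrigel), and NDUFA4 was at 702 and 608 (1.16 higher in GelNB-CH). The subunits with tissue-specific forms were read almost wholly from the common form in otic cells. COX4I1 was at 619 and 535 CPM and its hypoxia-responsive alternative COX4I2 at 1.11 and 5.06, from 77 and 207 UMIs, a Matrigel to GelNB-CH ratio of 4.54 (3.48 to 5.98). COX6A1 was at 332 and 297 and the muscle form COX6A2 at 0.101 and 0.0978; COX6B1 was at 390 and 395 and the testis form COX6B2 at 0.0723 and 0.293. COX7A2 (331 and 363), COX7A2L (214 and 226), COX7B (232 and 256) and COX8A (294 and 293) were common to both libraries, while COX7B2 had 0 and 2 UMIs and COX8C 5 and 2.

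The alternative forms were found in particular clusters. COX4I2 stood at 11 CPM in GelNB-CH and 26 in Matrigel in the unnamed cluster 19, which carried KRT15, KRT17 and KRT19 among its leading genes, and at 2.33 and 20.6 in the unnamed cluster 2. In the dividing otic cluster 13 it was at 2.02 and 9.56. COX6A2 was at 92.0 and 317 CPM in the skeletal muscle-like cluster 23, which had 22 cells in GelNB-CH and 2 in Matrigel. NDUFA4L2, a hypoxia-induced relative of NDUFA4 that is not a member, was at 14.6 and 40.2 CPM in otic cells (2.75 higher in Matrigel), the opposite order to NDUFA4.

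In complex V, the 3 genes for subunit c of the rotor ring, whose mature proteins are the same, behaved differently. ATP5MC1 was at 139 CPM in GelNB-CH and 99.2 in Matrigel in otic cells, the highest nuclear ratio at 1.404 (1.35 to 1.46), whereas ATP5MC2 was at 685 and 679 and ATP5MC3 at 329 and 309. ATP5MC1 also had the highest nuclear ratio in all kept cells (154 and 102, 1.51), mesenchyme-like (152 and 103, 1.47), cartilage-like (189 and 112, 1.68), Schwann or satellite glia-like (135 and 98.3, 1.37) and neuron-like cells (141 and 92.0, 1.53). In CNS progenitor-like cells NDUFA9 (47.4 and 32.9), NDUFB9 (159 and 112) and NDUFS3 (123 and 86.8) had higher ratios. ATP5ME, the small membrane subunit e, was lower in GelNB-CH at 223 and 325 CPM, while the catalytic subunits ATP5F1A (219 and 233) and ATP5F1B (192 and 209) had ratios of 0.940 and 0.917.

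Promoters of the nuclear members at the 2 ends of this range are shown because both genes lay at or near their end of the range in most classes: NDUFA3 among the 3 lowest ratios in all 6, and ATP5MC1 highest in all but CNS progenitor-like cells. They are 300 bases around the annotated start, 250 before and 50 after, from RefSeq on GRCh38.p14, given on the plus strand. ATP5MC1 lies on chromosome 17 (chr17:48892537-48892836), with the letters CACGTG in capitals, which hold the hypoxia-factor core ACGTG on both strands.
ATP5MC1: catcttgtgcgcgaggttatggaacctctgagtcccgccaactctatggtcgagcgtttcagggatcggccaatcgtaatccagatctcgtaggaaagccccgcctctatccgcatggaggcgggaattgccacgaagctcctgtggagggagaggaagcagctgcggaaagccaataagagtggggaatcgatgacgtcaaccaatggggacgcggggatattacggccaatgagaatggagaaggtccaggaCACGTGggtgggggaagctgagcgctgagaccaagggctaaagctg
NDUFA3 lies on chromosome 19 (chr19:54102605-54102904), with 2 NRF1 matches (GCGCA followed by NGCGC, at bases 81 to 90 and 178 to 187 of the window) and 1 YY1 match (AAGATGGC, at 272 to 279) in capitals.
NDUFA3: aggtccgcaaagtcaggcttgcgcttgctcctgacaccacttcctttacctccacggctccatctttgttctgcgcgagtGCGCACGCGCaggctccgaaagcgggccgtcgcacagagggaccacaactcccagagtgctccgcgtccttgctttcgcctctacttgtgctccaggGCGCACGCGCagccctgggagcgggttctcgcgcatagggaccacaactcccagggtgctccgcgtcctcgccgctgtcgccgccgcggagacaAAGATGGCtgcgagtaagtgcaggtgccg
NRF1, GABPA and YY1 are transcription factors known to act at many respiratory chain genes. Of the 83 nuclear members, 67 had a promoter in the table. On either strand, the NRF1 letters, as spelled above, were in 16 of them (23.9%, against 6.98% of 27305 genes), the ETS letters CCGGAAG bound by GABPA in 20 (29.9% against 12.2%) and the YY1 letters AAGATGGC in 12 (17.9% against 3.52%). At least 1 of these was present in 39 members (58.2% against 20.0%), and ACGTG was in 17 (25.4% against 24.9%). These matches describe letters in a window only.

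Between lineages, the median member varied less than the median gene. A gene was called apart when its highest class was at least 2-fold above its lowest in both libraries, with the same class highest. By this rule 0 of 13 mtDNA members and 3 of 76 nuclear members were apart, while 42.7% of all genes tested were. The same class was highest in both libraries for 8 of 13 mtDNA members. MT-CO1 and MT-CO3 were past 2-fold in both libraries and failed the rule only because their highest class differed. The median range from lowest to highest class was 1.57-fold for mtDNA members in GelNB-CH and 1.99-fold in Matrigel, 1.39-fold and 1.46-fold for nuclear members, and 2.30-fold and 2.31-fold for all genes. The 3 nuclear members apart were all accessory subunits of complex I with their highest level in CNS progenitor-like cells. NDUFA7 was at 171 CPM there in GelNB-CH and 148 in Matrigel, against 64.4 and 63.7 in mesenchyme-like cells. NDUFA3 was at 186 and 303, against 91.3 and 138 in cartilage-like cells. NDUFC1 was at 184 and 258, against 91.3 and 92.1 in neuron-like cells.

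Other nuclear members with wide ranges were NDUFS8 (185 and 194 CPM in CNS progenitor-like, 92.8 and 69.9 in cartilage-like cells), UQCRC1 (73.7 and 60.9, 37.9 and 28.9 in the same classes) and NDUFV3 (87.4 and 125 in CNS progenitor-like, 49.0 and 57.3 in mesenchyme-like cells). NDUFA5 was lowest in Schwann or satellite glia-like cells in both libraries (90.0 and 80.5), but highest in neuron-like cells in GelNB-CH (163) and in otic cells in Matrigel (159). In total, 23 nuclear members had their highest level in CNS progenitor-like cells in both libraries, 17 in neuron-like and 8 in Schwann or satellite glia-like cells.

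Among mtDNA members, MT-CO1 and MT-CO3 had the widest range, and otic cells held the lowest level of both in each library, as they did of MT-CO2, MT-CYB, MT-ATP6, MT-ND3 and MT-ND4. MT-CO1 was at 2648 and 2064 CPM in otic cells, against 5731 in CNS progenitor-like cells of GelNB-CH and 5976 in Schwann or satellite glia-like cells of Matrigel. MT-CO3 was at 1945 and 1199 in otic cells, against 4941 in CNS progenitor-like cells of GelNB-CH and 3374 in mesenchyme-like cells of Matrigel. MT-ND2 was the exception: its level was highest in otic cells in both libraries (1691 and 1424), though the mesenchyme-like value of Matrigel (1418) was close.

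Single cells showed a broad range of mtDNA-encoded RNA beside a narrow one of nuclear-encoded members. In otic cells the median cell had 1.87% mtDNA-encoded UMIs in GelNB-CH and 1.28% in Matrigel, and the lowest 10% of cells had at most 0.616% and 0.201%. The nuclear share of the median otic cell was 1.86% in both. When each cell was thinned to 5000 UMIs, leaving out the 556 and 153 shallower otic cells, the median otic cell had 92 and 63 mtDNA-encoded and 93 and 94 nuclear-encoded member UMIs. Thinned Schwann or satellite glia-like cells had 143 and 141 mtDNA-encoded UMIs.

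**Figure D4:**
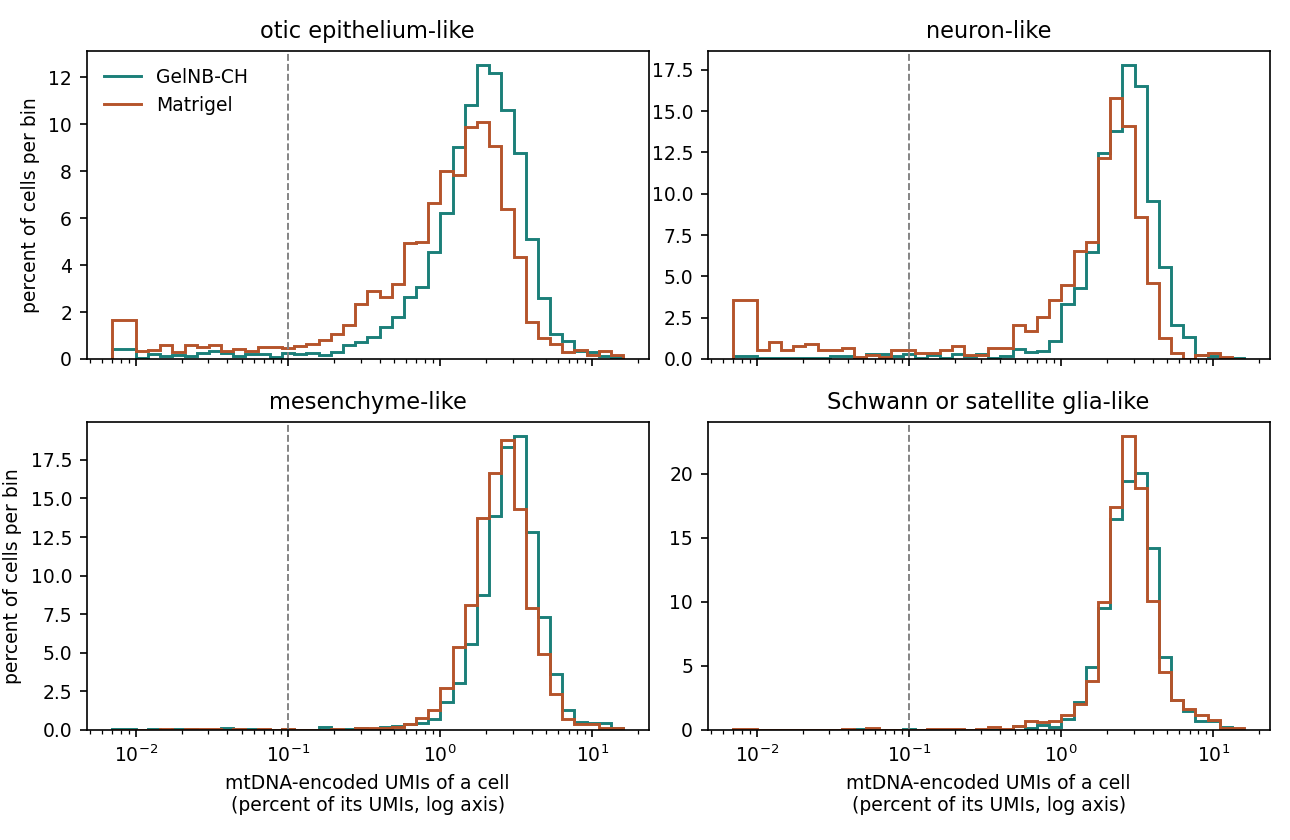
Distribution over cells of the percent of UMIs from the 13 mtDNA-encoded members, in otic, neuron-like, mesenchyme-like and Schwann or satellite glia-like cells, for GelNB-CH and Matrigel, on a log axis with the leftmost bin holding all lower values and a dashed line at 0.1%. Under 0.1% lie 7.37% of otic and 10.3% of neuron-like cells of Matrigel, the latter all from cluster 22, and 0.241% of Schwann or satellite glia-like cells.

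The distributions per cell show a tail of cells with almost no mtDNA-encoded RNA, called mtDNA RNA-poor here when under 0.1% of UMIs, a limit set after the values were seen. In otic cells these were 164 of 6098 in GelNB-CH (2.69%, Clopper-Pearson interval 2.30 to 3.13%) and 171 of 2321 in Matrigel (7.37%, 6.34 to 8.51%). With cells thinned to 5000 UMIs the shares were 2.69% and 7.33%. Of the otic clusters, cluster 11 had 4.80% and 14.9%, cluster 10 1.14% and 6.79%, cluster 8 1.43% and 6.21%, and cluster 12 7.12% and 7.31%. Neuron-like cluster 22 had 22 of 364 (6.04%) and 80 of 657 (12.2%), whereas neuron-like cluster 9 had 3 of 846 (0.355%) and 0 of 123, which allows a share of up to 2.95%. The unnamed keratin-bearing cluster 19 had 5.54% and 16.7%. Mesenchyme-like (0.642% and 0.359%), cartilage-like (1.37% and 0%) and Schwann or satellite glia-like cells (0.0786% and 0.241%) had few such cells. Just inside the limit, at 0.05 to 0.1%, there were 40 and 38 otic cells, and just outside, at 0.1 to 0.2%, 51 and 61, so the limit cuts a continuous range.

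The otic mtDNA RNA-poor cells were otherwise close to the rest in the nuclear part of the set. The median such cell had 3 mtDNA-encoded UMIs in each library, where other otic cells had 188 and 207. Its depth was 8337 UMIs against 9337 in GelNB-CH and 12549 against 14950 in Matrigel. Its nuclear share was 2.01% against 1.86%, and 1.92% against 1.86%. Doublet scores were lower than in the other cells (0.0915 against 0.115, and 0.0424 against 0.0527), and over all classes 1 mtDNA RNA-poor cell had a barcode shared between the libraries. Ribosomal protein genes took 26.9% against 21.6% and 26% against 22%, and MALAT1 3.47% against 3.07% and 4.15% against 3.46%.

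Summed over cells, with the other otic cells weighted to the same cluster make-up, the 13 mtDNA members were lower in the mtDNA RNA-poor cells by definition. MT-CO1 was at 35.3 CPM against 2464 in GelNB-CH and 53.3 against 2109 in Matrigel. Nuclear members were not: 0 of 76 were at least 1.5-fold higher and 0 of 76 at least 1.5-fold lower in either library, where 3.51% of all genes were higher and 10.7% lower in GelNB-CH, and 3.14% higher and 7.8% lower in Matrigel. The median log2 ratio of the 76 was 0.11 and 0.01. The nuclear members farthest from 1 in GelNB-CH were NDUFA6, at 149 CPM against 114, and ATP5F1A, at 173 against 219, and ATP5F1A was also the lowest in Matrigel, at 196 against 241. TFAM, which packages mtDNA and starts its transcription, was at 88.0 CPM against 78.0 and 90.2 against 77.5. PPARGC1A, a coactivator of mitochondrial biogenesis, was at 8.66 against 19 and 10.7 against 23.9.

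Genes of the integrated stress response, a program of the transcription factor ATF4 that is known to follow mitochondrial dysfunction, were higher in the mtDNA RNA-poor otic cells. Of 13 such genes that reached 10 CPM, 12 passed a ratio of 1.5 in GelNB-CH and 11 in Matrigel, with median log2 ratios of 2.37 and 1.61. Of all genes, 3.51% and 3.14% did. This list and those in the next paragraph were chosen after the leading genes of these cells had been seen, so their counts are a description. ATF5, a transcription factor of the mitochondrial stress response, was at 299 CPM against 27.7 in GelNB-CH and 426 against 106 in Matrigel. TRIB3, a pseudokinase induced by ATF4, was at 38.6 against 1.91 and 67.1 against 7.66. GDF15, a secreted signal of mitochondrial stress, was at 34.6 against 0.615 and 28.0 against 1.21, and NUPR1 at 123 against 5.67 and 57.3 against 11.1. ATF4 itself was at 189 against 96.0 and 171 against 116.

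Serine and one-carbon synthesis genes followed, with 8 of 9 higher in each library, where 3.51% and 3.14% of all genes were at least 1.5-fold higher. MTHFD2, the mitochondrial folate enzyme, was at 240 CPM against 31.6 and 238 against 80.2, and SHMT2, which makes glycine from serine in mitochondria, at 169 against 35.3 and 205 against 76.2. Amino acid transport genes were higher in 5 of 7 and 6 of 7 cases and cytosolic tRNA synthetases in 10 of 14 and 12 of 15. The mitochondrial chaperone HSPD1 was at 597 against 361 and 743 against 429, and the protease LONP1 at 30.7 against 14.8 and 40.4 against 20.8, while HSPE1 was at 389 against 390 and 317 against 345. NDUFA4L2 was at 57.3 against 13.9 and 104 against 35.8.

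Other lists were lower in the mtDNA RNA-poor otic cells. Sterol synthesis genes were at least 1.5-fold lower in 12 of 14 cases in GelNB-CH and 11 of 14 in Matrigel. Of all genes, 10.7% and 7.8% were lower by this rule. The median log2 ratios of the sterol genes were -1.0 and -1.09. This sterol synthesis list was likewise chosen after the leading genes of these cells had been seen, so its counts are a description. HMGCS1, an early enzyme of that pathway, was at 89.3 CPM against 228 and 58.6 against 210. Immediate early genes were lower in 7 of 7 and 6 of 8 cases, with FOS at 123 against 351 and 217 against 442. None of the tricarboxylic acid cycle genes was at least 1.5-fold higher in either library (0 of 15 and 0 of 17).

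**Figure D5:**
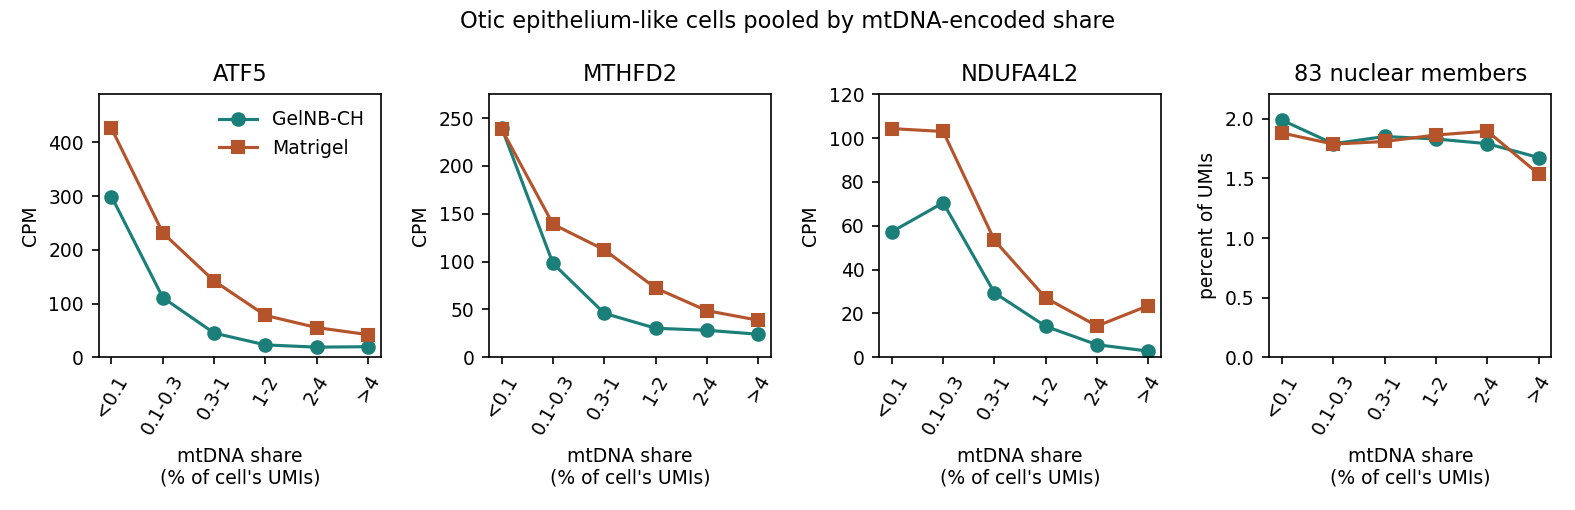
Levels of ATF5, MTHFD2 and NDUFA4L2 (CPM) and summed percent of UMIs of the nuclear members in otic cells pooled into 6 groups by their mtDNA-encoded share, for GelNB-CH and Matrigel. ATF5 is at 299 and 426 CPM in the lowest group and 19.7 and 42.1 in the highest, while nuclear members lie between 1.54% and 1.99%.

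ATF5 was also higher in cells just above the limit than in cells with larger mtDNA shares. In GelNB-CH, ATF5 was at 299 CPM in the 164 otic cells under 0.1%, 111 at 0.1 to 0.3%, 45.1 at 0.3 to 1%, 23.0 at 1 to 2%, 18.9 at 2 to 4% and 19.7 above 4%, with little difference above 1%. In Matrigel the values were 426, 232, 142, 77.9, 55.2 and 42.1 CPM over the same groups, so ATF5 was higher in Matrigel in every group. The summed nuclear members stayed between 1.68% and 1.99% in GelNB-CH and between 1.54% and 1.90% in Matrigel, lowest in both above 4%, where median depth was 6216 and 5439 UMIs. As the grouping uses the mtDNA share, which depends on the same total as the other values, these levels are a description. MTHFD2 and NDUFA4L2, plotted beside ATF5, were likewise highest in a group under 0.3%, though NDUFA4L2 in GelNB-CH was higher at 0.1 to 0.3% (70.5) than under 0.1% (57.3), and in Matrigel it was higher above 4% (23.6) than at 2 to 4% (14.3). Without the cells under 0.1%, the log2 ratio of GelNB-CH to Matrigel for the mtDNA sum of otic cells was 0.42, against 0.47 with them.

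In neuron-like cluster 22, the mtDNA RNA-poor cells were few (22 and 80), and many genes passed 1.5-fold: 33.4% of all genes were higher and 18.5% lower in GelNB-CH, and 17.9% and 11.2% in Matrigel. Nuclear members were higher in 14 and lower in 12 of 76 in GelNB-CH, and 8 and 5 in Matrigel, below these shares in percent. ATF5 was at 240 CPM against 96.2 and 405 against 164. Its highest level in this cluster lay above the limit of 0.1%, unlike in otic cells. It was at 315 CPM in the 10 GelNB-CH cells of 0.3 to 1% and at 748 in the 20 Matrigel cells of 0.1 to 0.3%. Genes induced by p53, a list also chosen after its values were seen, were higher in 7 of 10 and 8 of 10 cases: CDKN1A, an inhibitor of the cell cycle, was at 100.2 CPM against 12 and 78.9 against 6.64, and BBC3, which promotes apoptosis, at 140 against 21.9 and 85.5 against 16.9. In otic cells the p53 list was higher in 5 of 10 and 6 of 10 cases, where 3.51% and 3.14% of all genes were. The median mtDNA RNA-poor cell of cluster 22 had 6909.5 UMIs against 9686 in GelNB-CH and 11070.5 against 14920 in Matrigel. Ribosomal protein genes took 10.2% against 18.2% and 14.2% against 18.9%, and MALAT1 4.96% against 2.63% and 5.38% against 2.90%. Doublet scores were higher, at 0.137 against 0.0968 and 0.0561 against 0.0300. The part of RNA quality and doublets in these gene levels was not tested.

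Most of the wider mitochondrial lists had no gene past 1.5-fold between the libraries in otic cells. Of all genes, 2.9% were higher in GelNB-CH and 2.65% in Matrigel by this rule, so counts of 0 in lists this short are near the share of all genes. By the 1.5-fold rule, the counts higher in GelNB-CH and in Matrigel were 0 and 0 for 16 complex I assembly factors, 9 complex II and III factors, 19 complex IV factors, 5 complex V factors, 20 genes of mitochondrial transcription and RNA, 7 of mtDNA maintenance, 12 carriers, 17 tricarboxylic acid cycle genes and 10 chaperones and proteases. For 77 mitochondrial ribosomal protein genes the counts were 0 and 1. The genes of mitochondrial transcription and RNA had ratios below 1 in 17 of 20 cases, where 54.8% of all genes did, with a median log2 ratio of -0.11 beside -0.02 for all genes. SLIRP, which stabilises mitochondrial mRNA, was at 157 CPM in GelNB-CH and 229 in Matrigel, whereas TFAM was at 82.1 and 80.1. POLRMT, the mitochondrial RNA polymerase, was at 5.10 and 8.53 CPM, below the minimum of 10 CPM and so not among the 20.

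Within the assembly factors, the complex IV factors PET100 (154 and 214 CPM) and COX17, a copper chaperone (52.8 and 71.0), had the lowest ratios and COX14 (63.9 and 53.3) the highest. Among regulators of biogenesis, a list not in the counts above, PPARGC1A was at 16.1 and 23.0 CPM. The nuclear receptor ESRRG was at 29.5 and 14.5, past 1.5-fold toward GelNB-CH. Of the 9 hypoxia-linked switches of respiration, 0 passed the size rule toward GelNB-CH and 4 toward Matrigel in otic cells, where 2.9% and 2.65% of all genes did, with a median log2 ratio of -0.55: NDUFA4L2, BNIP3, which acts in mitophagy (137 and 307 CPM), the glucose transporter SLC2A1 (23.3 and 52.5) and PDK1, which holds back pyruvate oxidation (20.2 and 38.7). The integrated stress response list was likewise higher in Matrigel over all otic cells, in 6 of 9 genes (2.65% of all genes) with a median log2 ratio of -0.79, and ATF5 was at 32.1 CPM in GelNB-CH and 118 in Matrigel. All 6 inducible heat shock genes had ratios above 1, with HSPA1A at 191 and 70.0 CPM. The integrated stress response list was chosen after the leading genes of the mtDNA RNA-poor cells had been seen. With 2 libraries, any gene that differs between them moves with or against the mtDNA share. The part of these genes in the mtDNA share was not tested.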

How the data were processed

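The authors deposited 1 matrix of raw UMI counts per library, with genes in rows and called cells in columns; per the file headers they are unscaled. Cell Ranger is given as 4.0.0 per the labels' protocols and 7.1.0 per the file headers. STAR and GRCh38 stand in the submitters' processing notes, and no annotation version is stated there. Each group had 1 library (247006223 UMIs in 21743 barcodes for GelNB-CH, 178672097 in 10912 for Matrigel), so no test or p-value is given.

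Cells with at least 1000 genes and at most 15% mitochondrial UMIs were kept, and Scrublet doublets removed (14.2% and 6.55% of barcodes). Both libraries were clustered together without member genes (scanpy 1.11.5, 2000 variable genes, 30 components, 15 neighbours, Leiden resolution 1) and named from 15 marker lists. Counts were summed per class and library and scaled to CPM; ratios have exact conditional binomial 95% intervals. The scripts were tested on simulated data (Python 3.11.15, numpy 2.4.6, pandas 2.3.3, scipy 1.17.1).

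The members and lists were chosen with earlier results of these data known. Named genes were all mtDNA members, nuclear members with the largest and smallest ratios (5 each over all and otic cells, 3 each in other classes), the 8 with the widest range over classes (1 of them is not reported here), isoform sets, SDH genes and the extremes of each list; the genes named for mtDNA RNA-poor cells and some further complex III and V subunits were picked after their values were seen. Settings varied were the filters, doublets, depth, scale, cluster make-up and resolution, and the fold.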

Additional observations from a re-analysis of the deposited data

How the results depend on the processing

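No paired analysis was possible because each group has 1 library. Of the values recomputed under alternatives, 248 stayed within the counting interval or count limit, 141 moved and 15 changed sign. The log2 ratio of GelNB-CH to Matrigel for the otic mtDNA sum, 0.47 as reported, stayed between 0.37 and 0.55 over 17 alternatives. The nuclear sums lay so near a ratio of 1 that the sign of their log2 ratio depended on the setting in most classes. No alternative reversed it in mesenchyme-like (0.013 to 0.063) or cartilage-like cells (0.0069 to 0.104).

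In all kept cells, the mtDNA log2 ratio (0.14 as reported) was 0.214 without members under 400 bases, 0.143 with no mitochondrial cap, 0.125 with at least 2000 genes, 0.051 in cells of 8000 to 16000 UMIs, 0.148 as a mean of cells, 0.143 per nuclear-encoded UMIs, 0.142 without mitochondrial, ribosomal and MALAT1 UMIs, 0.239 at equal cluster make-up and 0.130 without cycling clusters. In otic cells the same settings gave 0.550, 0.479, 0.466, 0.406, 0.446, 0.481, 0.459, 0.499 and 0.486, and a cap of 10% gave 0.480, resolution 0.5 gave 0.452 and resolution 2 gave 0.454.

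The nuclear log2 ratio in all kept cells was 0.015 without members under 400 bases, -0.0027 with at least 2000 genes, -0.0042 with doublets kept, -0.032 in cells of 8000 to 16000 UMIs, 0.037 as a mean of cells, 0.0085 per nuclear-encoded UMIs, 0.0074 without mitochondrial, ribosomal and MALAT1 UMIs, 0.021 at equal make-up and -0.0016 without cycling clusters. In otic cells it was -0.018 without the short members, -0.033 with doublets kept, 0.025 as a mean of cells, -0.018 per nuclear-encoded UMIs, -0.039 without mitochondrial, ribosomal and MALAT1 UMIs and -0.031 at resolution 0.5. In cells of 8000 to 16000 UMIs, Schwann or satellite glia-like cells reversed in both sums (-0.091 mtDNA and -0.143 nuclear), as did the nuclear sums of CNS progenitor-like (-0.024) and neuron-like cells (-0.048).

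Added after seeing the data, cells of 8000 to 16000 UMIs at equal make-up gave 0.180 and 0.479 for mtDNA and -0.033 and -0.052 for nuclear sums in all and otic cells, -0.093 and -0.138 in Schwann or satellite glia-like cells, and nuclear values of -0.024 in CNS progenitor-like and -0.075 in neuron-like cells. Leaving out otic clusters 10 and 12 gave 0.111 and 0.370 for mtDNA and 0.026 and 0.023 for nuclear sums. Leaving out mtDNA RNA-poor cells gave 0.122 and 0.424 for mtDNA.

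Of the otic counts past 1.5-fold, mtDNA members higher in Matrigel were 2 in place of 1 with at least 2000 genes, doublets kept, 8000 to 16000 UMIs, the mean of cells, without mitochondrial, ribosomal and MALAT1 UMIs, and without mtDNA RNA-poor cells. At 8000 to 16000 UMIs, with or without equal make-up, 1 nuclear member was higher in GelNB-CH and 3 in Matrigel. A ratio limit of 5 to 4 gave 6 and 2 mtDNA and 3 and 7 nuclear members, and a fold of 2 gave 0 and 0 mtDNA and 0 nuclear members higher in Matrigel. The cause of these changes was not tested.

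Because 1 library stands for each matrix, organoid batch, dissociation, sorting and sequencing cannot be told apart from the matrix. Levels of a few UMIs (COX4I2, COX6A2) are limited by depth, and free RNA was not subtracted.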

Other observations

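Hair cell-like cells (cluster 20), with 14 of 16 hair cell markers, were few, at 16 in GelNB-CH and 12 in Matrigel. Their mtDNA members took 5.74% and 2.91% of UMIs and their nuclear members 2.04% and 1.78%, so the GelNB-CH hair cell-like cells had a higher mtDNA share than any class described in the report. Cluster 6, a cartilage-like cluster of 65 and 31 cells with ACAN among its leading genes, had 6.33% and 5.68% of UMIs from mtDNA members and 0.269% and 0.136% from nuclear members. Its median cell had 4479 and 7085 UMIs and 1.55% and 1.01% from ribosomal protein genes, against 28.5% and 27.2% in the other cartilage-like cluster; the part of RNA quality in its balance of genomes was not tested. The unnamed cluster 2, in which KRT17, CLDN3 and LMX1A led, had mtDNA shares of 2.04% and 1.77%, and the unnamed cluster 19 had 1.94% and 1.91%.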
